A study of Mus musculus with 42 samples.

Results

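Lymph nodes from the operated and the unoperated side of the same mice were compared on day 14 of a knee arthroplasty study, in which part of the joint was replaced by an implant. The comparison used 6 of the 42 libraries of the series: the Implant nodes of mice 25, 26 and 27, and the ContraImplant nodes of the same 3 mice, which the count columns name as without surgery. They were chosen by their column names and paired by mouse number. Every animal in these groups was a C57BL/6 wild type mouse, and the labels name no other allele or agent for them. A ContraImplant node comes from an animal that was operated on the other side. Other nodes served for orientation: NoImplant nodes of mice 34, 35 and 36 on day 14, which entered no test, and Implant and ContraImplant nodes of mice 7, 8 and 9 on day 7. The labels used here give neither the age and sex of the mice nor the node station, so the drainage of each node was taken from its label alone.

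A lymph node filters the lymph of a tissue region. Sinus macrophages line its channels and catch particles, cell debris and microbes with scavenger and lectin receptors, B cells fill the follicles, T cells the paracortex, and fibroblastic, lymphatic and blood endothelial cells form the scaffold. The node lies in a fat pad, so that adipocytes can be taken along at dissection. In bulk RNA, fewer cells of a type and less RNA per cell cannot be told apart, which holds for every list below.

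The 6 libraries held 24057399 to 30654696 counts over genes. Levels are given as CPM, the counts of a gene scaled to a common library size, also corrected for library composition. T and B cell markers were abundant in all 6, with Cd3e at 126 to 184 CPM and Ms4a1 at 363 to 645 CPM. Of 14 skeletal muscle markers tested, Acta1 stayed at or below 1.11 CPM and Ckm at or below 0.332 CPM. The ContraImplant library of mouse 8 on day 7 stood apart from the other libraries used: the adipocyte list took 1.25% of its counts and mitochondrially encoded genes took 4.08%. It shares a fit with day 14, so results are also given without the nodes of mouse 8.

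No gene passed the test on day 14 in the fit that held both days. That fit gave each mouse its own baseline, and 0 of 18281 genes (0%) reached an adjusted p below 0.05 in edgeR's quasi-likelihood test, where the smallest adjusted p was 0.126 and 2556 genes had an unadjusted p under 0.05. DESeq2 on the same model called 100 of 14028 genes (0.713%). Without both nodes of mouse 8 of day 7, edgeR called 601 genes higher (3.3%) and 1187 lower (6.51%) in the Implant node on day 14. When only the 6 day 14 libraries were fitted, with 2 residual degrees of freedom, 716 genes were called higher (4.04%) and 1565 lower (8.82%). Of the calls of these last fits 1748 were shared, which is 97.8% of the calls without mouse 8 and 76.6% of those from day 14 alone, and all 1748 had the same sign. Calls named below as made "in day 14 alone" come from the edgeR fit of the 6 libraries. None of them passed in the edgeR fit of both days with mouse 8 kept, which is the fit meant below by "with both days in the fit". Many of them passed without mouse 8, as the shared calls show, and some in DESeq2 on that model. They rest on the pairing: with no term for the mouse, the 6 libraries gave 136 calls.

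The differences were small for most genes. Over all 18281 genes the median log2 fold change, Implant over ContraImplant, was 0.01 and the median absolute value was 0.14. In all 3 mice 25.6% of genes were higher and 23.9% lower in the Implant node. The CPM ranges of the groups lay apart, with the Implant node higher, for 7.77% of genes, and with it lower for 10.5%. In day 14 alone, 14 of the genes called higher and 233 of those called lower differed by at least 2-fold.

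Of the 34 lists, the adipocyte list had the largest median difference. All 15 members of the adipocyte list were lower in the Implant node of all 3 mice (23.9% of all genes). In 13 of them the CPM ranges lay apart (10.5% of all genes, Implant node lower). The median log2 fold change was −2.85. None passed with both days in the fit, and 14 were called lower in day 14 alone (background 8.82%). With no term for the mouse in that fit, 5 were called lower (135 of all 17230 genes). Adipoq, the fat cell hormone adiponectin, read 129, 90.7 and 87.4 CPM in the ContraImplant nodes of mice 25, 26 and 27, and 32.4, 6.13 and 9.02 CPM in their Implant nodes. The sides did not overlap, and mouse 25 had the highest value on each. Its log2 fold change over the 3 mice was −3.00 ± 1.01 with both days in the fit (edgeR adjusted p = 0.308). That SE uses the spread of both days, mouse 8 included. In day 14 alone it was −2.88 ± 0.28 (edgeR adjusted p = 0.000689). Cfd, the complement protease adipsin, which fat cells secrete, was at 1139, 931 and 658 CPM against 212, 53.1 and 68.4 CPM. Plin1, a coat protein of the lipid droplet, was at 132, 98.7 and 94.6 CPM against 35.5, 11.1 and 14.2 CPM. In both genes every ContraImplant node exceeded every Implant node. Ucp1, the uncoupling protein of brown fat, varied widely among mice, at 4.28, 39.3 and 17.3 CPM against 0.245, 0.193 and 10.1 CPM. It was the only member not called in day 14 alone, and its sides overlapped.

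The NoImplant nodes show how far this signal varies without an implant. Adipoq read 41.7, 309.5 and 228 CPM in mice 34, 35 and 36. The adipocyte list took 0.405%, 0.288% and 0.251% of counts in the ContraImplant nodes, 0.0932%, 0.0282% and 0.0404% in the Implant nodes and 0.12%, 0.666% and 0.681% in the NoImplant nodes. The Implant nodes lay below all others of day 14. On day 7 the side with more of this signal was not constant: the list level, a mean of log2 CPM, differed by 1.87, −3.47 and 0.91 between the Implant and the ContraImplant node of mice 7, 8 and 9, against −2.28, −3.75 and −2.50 in mice 25, 26 and 27. Outside the list, Cd36, a fatty acid importer, was at 158, 134 and 133 CPM against 67.6, 51.9 and 54.8 CPM. Pnpla2, which starts the breakdown of stored fat, was at 325, 265 and 235 CPM against 148, 117 and 116 CPM. Lipe, the lipase of the next step, was at 147, 103 and 93.1 CPM against 61.4, 45.7 and 45.6 CPM. These 3 were among the genes of smallest p in day 14 alone (edgeR adjusted p = 1.03e-05, 2.45e-05 and 3.2e-05). The labels do not record how much fat was trimmed from each node, and its part in the other results was not tested beyond the values given beside them.

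**Figure D1:**
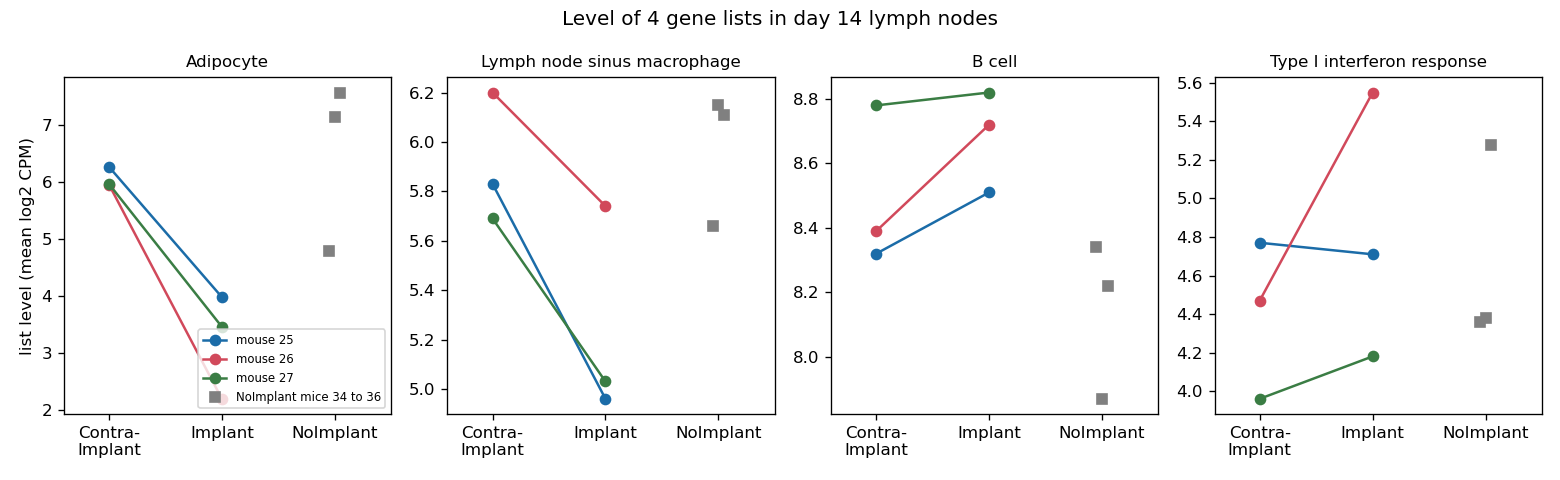
Level of 4 gene lists (mean log2 CPM of the members) in each day 14 node; lines join the ContraImplant and Implant nodes of mice 25, 26 and 27, and squares are NoImplant nodes of other mice. The adipocyte list and the sinus macrophage list were lower in the Implant node of all 3 mice, and the interferon list differed mainly in mouse 26 (1.08, against −0.06 and 0.22).

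Markers of sinus macrophages were lower on the implant side in most mice and genes. Some other lists also had negative medians. The adipocyte list, given above, was lower in all members and mice. All 8 mitochondrially encoded genes tested were negative (median −0.26), 6 of them lower in all 3 mice (23.9% of all genes). All 3 platelet genes tested were lower in all 3 mice (median −0.31). Erythroid, mast cell and neutrophil lists were less even among mice or genes. Their medians were −0.69, −0.52 and −0.40, with 8 of 9, 10 of 10 and 13 of 16 genes negative. Of these, 3, 4 and 4 were lower in all 3 mice (23.9% of all genes). In mice 25, 26 and 27 the medians were −0.60, −1.34 and −0.03 for erythroid genes. They were −1.26, −0.24 and 0.07 for mast cell genes and −0.20, −0.43 and −0.17 for neutrophil genes. In day 14 alone 1 of 9, 0 of 10 and 3 of 15 of these were called lower, and 1 neutrophil gene was called higher. Whether the lists differ from one another was not tested. All 19 sinus macrophage genes tested had a negative log2 fold change, with a median of −0.64. Of these, 16 were lower in all 3 mice (23.9% of all genes) and 10 had CPM ranges apart (10.5% of all genes, Implant node lower). With both days in the fit 0 passed in edgeR, while DESeq2 on the same model called 9 of 18 lower (0.713% of all genes in either direction). In day 14 alone 14 were called lower (background 8.82%), and without mouse 8 of day 7 the fit of both days called 12 (background 6.51%). With no term for the mouse, day 14 alone gave 1 (135 of all 17230 genes were called lower), which shows how far these calls rest on the pairing within animals. The list level was 5.83, 6.20 and 5.69 in the ContraImplant nodes, 4.96, 5.74 and 5.03 in the Implant nodes, and 5.66, 6.15 and 6.11 in the NoImplant nodes. The ContraImplant nodes thus lay in the range of the NoImplant nodes or just above it, while the Implant node of mouse 26 overlapped both other groups. The list level differed in the same direction on day 7, by −0.68, −1.60 and −0.79 in mice 7, 8 and 9. The adipocyte list was higher in the Implant node of mice 7 and 9 and lower in that of mouse 8. With the adipocyte level as a covariate, an alternative added after seeing the data, the median on day 14 was −0.29. On day 14 that level was lower in the Implant node of all 3 mice, so the covariate cannot separate fat from side. This limit holds wherever the covariate is used below. The part of fat in this list was not tested.

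The scavenger and lectin receptors led the list. Marco, a scavenger receptor that binds bacteria and particles, read 904, 792 and 627 CPM in the ContraImplant nodes and 373, 481 and 336 CPM in the Implant nodes. The sides were apart in all 3 mice, while the NoImplant nodes spread over 781, 423 and 1045 CPM. Its log2 fold change was −0.97 ± 0.12 (SE; edgeR adjusted p = 0.27 with both days, 0.000644 in day 14 alone), and −1.16 with the adipocyte covariate. Cd209b, a lectin of the SIGN-R1 type that binds microbial sugars, read 655, 749 and 511 CPM against 252, 429.6 and 254 CPM. Cd209d, of the same lectin family, read 45.6, 43.7 and 21.1 CPM against 15.5, 17.4 and 4.41 CPM. Both kept the sides apart, and mouse 27 had the lowest Cd209d on each side. The Cd209 genes are similar in sequence, so counts may have been split between them. Folr2, the folate receptor of resident macrophages, read 15.3, 19.0 and 11.4 CPM against 5.54, 10.1 and 6.15 CPM, and Timd4, a receptor for dying cells, 156, 167 and 173 CPM against 99.3, 134 and 119 CPM. Lyve1, shared by macrophages and lymphatic endothelium, read 132, 164 and 152 CPM against 66.6, 115 and 90.5 CPM.

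Not every marker moved as far or as evenly. Siglec1, the sialic acid receptor of subcapsular sinus macrophages, read 155, 237 and 198 CPM against 112, 223 and 149 CPM. The difference was small in mouse 26 (log2 fold change −0.33 ± 0.16 with both days in the fit). Siglec1 was still lower in each mouse and was called lower in day 14 alone (edgeR adjusted p = 0.0223). Vcam1, also made by stroma, was at 215, 261 and 259 CPM against 209, 264 and 247 CPM. Cd5l, Mertk and Vcam1 were each higher in the Implant node of 1 mouse and were not called in day 14 alone. Vsig4 stayed below 0.5 CPM in all 6 nodes, too low to read.

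**Figure D2:**
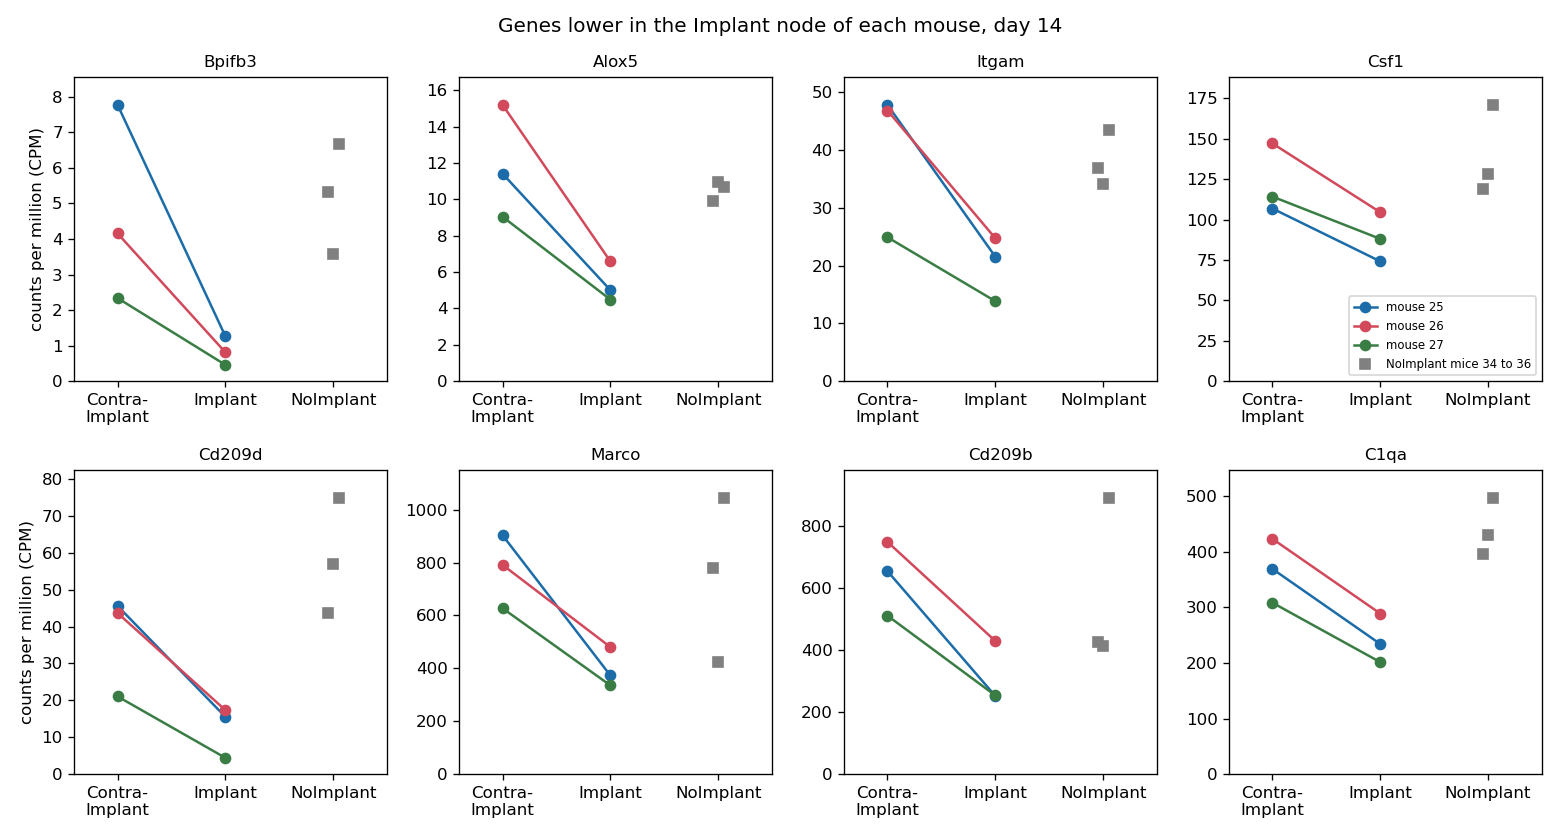
CPM of 8 genes in each day 14 node, on linear axes from 0; lines join both nodes of a mouse and squares are NoImplant nodes. In every panel the line runs downward to the Implant node in all 3 mice, and for Marco the NoImplant nodes spread from 423 to 1045 CPM.

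Upstream sequence is shown for the 3 sinus macrophage genes that passed the test on day 7 with both days in the fit, Cd209b, Cd209d and Timd4, as the members whose difference passed on at least 1 of the days. Each line gives the 250 bases before the RefSeq start site (GRCm38.p6), read 5′ to 3′ on the gene's strand, with any GGAAGT, on either strand, in capitals. GGAAGT is the core that ETS factors such as PU.1, a regulator of macrophages and B cells, can bind.
Cd209b: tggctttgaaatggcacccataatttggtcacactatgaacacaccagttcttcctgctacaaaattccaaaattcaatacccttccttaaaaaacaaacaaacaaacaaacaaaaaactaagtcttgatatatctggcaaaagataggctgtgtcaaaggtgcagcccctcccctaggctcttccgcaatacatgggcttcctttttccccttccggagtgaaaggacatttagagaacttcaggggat
Cd209d: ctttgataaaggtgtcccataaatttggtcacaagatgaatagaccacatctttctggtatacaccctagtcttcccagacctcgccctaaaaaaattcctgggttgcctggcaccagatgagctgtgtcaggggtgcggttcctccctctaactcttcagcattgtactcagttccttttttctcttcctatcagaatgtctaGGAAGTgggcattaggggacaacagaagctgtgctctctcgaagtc
Timd4: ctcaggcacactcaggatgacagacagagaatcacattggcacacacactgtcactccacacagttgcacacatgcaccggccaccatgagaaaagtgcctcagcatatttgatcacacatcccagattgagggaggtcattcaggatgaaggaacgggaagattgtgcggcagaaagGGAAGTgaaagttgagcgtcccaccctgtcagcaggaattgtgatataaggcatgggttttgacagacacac
The windows lie at chr8:3926842-3927091 (minus strand) for Cd209b, chr8:3878500-3878749 (minus strand) for Cd209d, chr11:46810549-46810798 (plus strand) for Timd4. Cd209d and Timd4 held 1 match each and Cd209b held 0. In all, 4 motifs were searched in 6 gene sets on both strands of the 300 bases around each start: the longer PU.1 motif GAGGAAGT, the shorter GGAAGT that lies within it, the C/EBP motif TTGCGCAA and the nuclear receptor motif AGGTCA. The shorter ETS motif was in 7 of the 14 sinus macrophage genes with a window (50%), in 7 of 11 B cell genes (63.6%) and in 1 of 11 adipocyte genes (9.09%). It was in 4 of 16 interferon genes (25%), 2 of 12 named lower genes (16.7%) and 1 of 10 named higher genes (10%). The shares were 24.1% of all 27025 promoters and 28% of the 12313 promoters of tested genes. The longer PU.1 motif was in 1 of the 14, the C/EBP motif in 0 and the nuclear receptor motif in 2, against 3.28%, 0.185% and 16% of all promoters and 3.26%, 0.276% and 12.5% of those of tested genes. These counts describe letters in short windows, and the motif shown in capitals was chosen after the 4 counts were seen.

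Complement and other myeloid genes were lower in part. C1qa, a chain of the complement starter C1q, which macrophages make, read 369, 423 and 309 CPM in the ContraImplant nodes and 234, 289 and 202 CPM in the Implant nodes. C1qb and C1qc had log2 fold changes of −0.60 ± 0.11 and −0.64 ± 0.14 beside −0.61 ± 0.13 for C1qa. The 3 chains differed alike. Of the 17 complement genes 6 were called lower in day 14 alone (background 8.82%) and 0 higher (background 4.04%), at a median of −0.19. The 6 were the C1q chains, C1ra, Cfp and Cfd. The C1q chains also stand on the sinus macrophage list and Cfd on the adipocyte list, so only C1ra and Cfp were not counted above. C3, the central component, was at 1736, 2453 and 2213 CPM against 1828, 2055 and 2050 CPM, with overlapping sides. C6, of the terminal pore and outside that list, read 44.7, 44.1 and 24.0 CPM against 12.6, 22.9 and 8.69 CPM.

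Among the monocyte and recruited macrophage genes the directions were mixed, with 5 of 16 called lower (background 8.82%) and 3 higher (background 4.04%) in day 14 alone (median −0.14). Itgam, the integrin chain CD11b, read 47.9, 46.9 and 24.9 CPM against 21.6, 24.8 and 13.8 CPM (log2 fold change −0.98 ± 0.12, edgeR adjusted p = 0.27 with both days and 0.000238 in day 14 alone). F13a1, a clotting factor chain of resident macrophages, read 33.3, 64.2 and 26.9 CPM against 8.06, 23.6 and 11.2 CPM. Ccr2, the receptor that brings monocytes in, had −0.36 ± 0.13, and Cd68, a lysosomal protein of macrophages, −0.34 ± 0.10. Ly6c2 and Plac8, genes of blood monocytes and of some lymphocytes, were higher: Ly6c2 read 63.4, 52.7 and 38.6 CPM against 71.6, 65.2 and 42.2 CPM, and Plac8 101, 82.1 and 96.5 CPM against 126, 119 and 108 CPM. Lyz2, lysozyme of all myeloid cells, was at 0.06 ± 0.08 on the log2 scale. Members of the list thus differed in both directions.

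The genes of smallest p in the fit of both days are given first as values, since none passed in edgeR. DESeq2 on the same model called 10 of the 12 named lower genes (0.713% of all genes in either direction). The 12 were picked by smallest p from the same libraries, so these calls and the DESeq2 values below are no separate support. Bpifb3, of the lipid-binding BPI fold family, read 7.78, 4.16 and 2.34 CPM in the ContraImplant nodes and 1.26, 0.81 and 0.457 CPM in the Implant nodes, and its fold change on the log2 scale was −2.47 ± 0.21 (SE; adjusted p = 0.126 in edgeR and 8.87e-06 in DESeq2). Alox5, the 5-lipoxygenase that makes leukotrienes, read 11.4, 15.2 and 9.05 CPM against 5.01, 6.59 and 4.49 CPM. Csf1, the growth factor that macrophages depend on, read 107, 147 and 114 CPM against 74.1, 105 and 88.0 CPM. In DESeq2 the adjusted p was 0.000427 for Alox5 and 0.000283 for Csf1. The sides lay apart for all 3 genes, with every Implant node below every ContraImplant node. The other lower genes by this rule were Itgam, Cd209d, Marco and C6, given above, and Mmd2, Tpbgl, Itga9, Tbx1 and Dnah6, with log2 fold changes from −0.42 to −4.34. Mmd2 reached at most 5.76 CPM, so its fold rests on few counts, and DESeq2 gave it no adjusted p. Dnah6 did not pass there (adjusted p = 0.056).

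The 12 genes named on the higher side had small differences. Tet2, which oxidises methylated cytosine, read 46.1, 45.1 and 50.7 CPM against 56.4, 58.5 and 62.5 CPM, with the sides apart (0.32 ± 0.05). Rictor, a subunit of the kinase complex mTORC2, read 70.4, 71.0 and 86.5 CPM against 87.9, 93.3 and 99.7 CPM, also apart. With both days in the fit the edgeR adjusted p was 0.271 for Tet2 and 0.278 for Rictor, and DESeq2 gave 0.0698 and 0.0589. Of the 12, DESeq2 called Fam208b, Usp34 and Med13. Scube1, a secreted protein with EGF-like repeats, had the largest fold of the 12 at 1.04 ± 0.16, from 1.25, 1.77 and 1.98 CPM to 2.63, 3.39 and 4.28 CPM. Nr2c2, Usp34, Fam208b, Cdc37l1, Fyco1, Med13, Phc3, Trpm7 and Pde7a had log2 fold changes from 0.22 to 0.37. All 12 were called higher in day 14 alone (background 4.04%). All these fits, DESeq2 included, hold the same day 14 libraries, so their calls are no separate support.

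B cell genes leaned the other way from macrophage genes. All 15 had a positive log2 fold change, 12 were higher in all 3 mice (25.6% of all genes), and the median was 0.19. None passed with both days in the fit, and in day 14 alone 4 were called higher, among them Ms4a1, Bank1 and Cd22 (background 4.04%). Ms4a1, the surface protein CD20, read 363, 417 and 611 CPM against 440, 555 and 645 CPM. Mouse 27 was high on both sides, so the sides overlapped while each mouse was higher in its Implant node. Without mouse 25 or mouse 26 none of the 15 was called in day 14 alone, and without mouse 27 there were 10. Higher calls over all genes also moved: 46 of 17150 without mouse 25, 123 of 17524 without mouse 26 and 1033 of 17391 without mouse 27. With the adipocyte covariate the median was −0.09. The T cell list had a median of 0.02 and no call.

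Ighg1, the heavy chain constant gene of IgG1, was the antibody gene with the largest positive difference, at 66.8, 11.5 and 244 CPM against 235.1, 369.5 and 474.5 CPM (log2 fold change 2.41 ± 0.89, edgeR adjusted p = 0.324 with both days and 0.0413 in day 14 alone). The size of the difference varied widely among the mice, and the NoImplant nodes read 1143, 1504 and 235 CPM. Of the 12 antibody constant genes Ighd and Ighg2b were also called higher in day 14 alone (background 4.04%), and the list's median was −0.03. Germinal centre genes had a median of 0.06. In day 14 alone 1 of 15 was called lower (background 8.82%) and 0 higher (background 4.04%).

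The type I interferon response had the highest positive median of the lists, 0.37. Of its 21 members 20 were positive and 13 higher in all 3 mice (25.6% of all genes). None passed with both days, and Oas3 alone was called in day 14 alone (background 4.04%). Mouse 26 carried most of the difference. The list level was 4.77, 4.47 and 3.96 in the ContraImplant nodes and 4.71, 5.55 and 4.18 in the Implant nodes. In the NoImplant nodes of mice 34, 35 and 36 it was 4.36, 4.38 and 5.28. Ifit1, an RNA-binding antiviral protein, read 13.92, 10.04 and 4.969 CPM against 13.49, 42.8 and 8.604 CPM. Oas3, which senses double-stranded RNA, read 25.3, 15.7 and 12.6 CPM against 32.6, 56.6 and 18.5 CPM. Without mouse 26 the median of the list in day 14 alone was 0.13, and without mouse 25 it was 0.59. Cxcl10, a chemokine of the same response, was lower in the Implant node of mouse 25, at 24.0 against 5.92 CPM.

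Vessel genes of both kinds were more often lower than higher. Of the 18 blood endothelial genes 8 were called lower (background 8.82%) and 2 higher (background 4.04%) in day 14 alone (median −0.21). Plvap, of the diaphragms of fenestrated vessels, read 627, 685 and 568 CPM against 408, 469 and 426 CPM, and Kdr, a receptor for VEGF, 125, 148 and 123 CPM against 79.3, 97.5 and 81.7 CPM. The sides lay apart for both. Of 11 lymphatic endothelial genes 6 were called lower and 2 higher, against the same background (median −0.34). Flt4, the receptor for VEGF-C, read 56.0, 87.5 and 69.2 CPM against 37.0, 56.1 and 45.6 CPM. Prox1, the factor that sets lymphatic identity, had −0.32 ± 0.14. Madcam1, an addressin of stroma and sinus lining cells that stands on 3 lists, was higher, at 12.3, 16.3 and 23.3 CPM against 19.1, 29.9 and 29.9 CPM. With the adipocyte covariate the medians were 0.33 for blood endothelium and −0.15 for lymphatic endothelium, so the first turned direction.

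Among 15 stromal genes 4 were called lower (background 8.82%) and 3 higher (background 4.04%) in day 14 alone. Lepr, the leptin receptor of reticular and perivascular cells, read 59.7, 80.7 and 53.0 CPM against 36.0, 51.4 and 36.1 CPM. Cxcl12, a chemokine of the medulla, read 747, 1098 and 806 CPM against 593, 712 and 652 CPM. Cxcl13, which draws B cells into follicles, was higher in each Implant node, at 187, 219 and 314 CPM against 283, 317 and 364 CPM. Ccl21a and Ccl19, the chemokines of the T cell zone, had log2 fold changes of 0.02 ± 0.15 and 0.02 ± 0.24. Of the 7 mitochondrially encoded genes tested in day 14 alone 6 were called lower (background 8.82%). Their share of all counts was 1.83%, 1.61% and 1.70% in the ContraImplant and 1.48%, 1.39% and 1.54% in the Implant nodes, and the part this plays in the lower lists was not tested.

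Day 7, in mice 7, 8 and 9, was the most similar comparison. With both days in the fit 5 genes were called higher (0.0274%) and 14 lower (0.0766%) on day 7. All 19 had the same sign in all 3 mice of day 14 (of all genes, 25.6% were higher and 23.9% lower in all 3). Of the 19, 16 had an unadjusted edgeR p under 0.05 on day 14, against 2556 of all 18281 genes. The days share no mouse, but they share a fit and its estimate of the spread. The p on day 14 is therefore no separate support. The difference of the day 14 and day 7 effects passed for 0 of 18281 genes (0%) in edgeR, where 541 had an unadjusted p under 0.05, while DESeq2 called 5 (0.0274%). Without mouse 8, edgeR called 8 genes with a more positive effect on day 14 (0.0439%) and 205 with a more negative one (1.12%).

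Fat and fibrillar collagen genes were prominent among the calls without mouse 8. Of the adipocyte list 13 of 15 had a more negative effect on day 14, at a median difference of −4.09, and of the matrix list 8 of 25. With mouse 8 in the fit none of these passed in edgeR. Mouse 8 was set apart partly by its adipocyte share. It alone of the day 7 mice had that list lower in its Implant node. Leaving it out moved the day 7 median of the adipocyte list from −0.17 to 1.27. The adipocyte calls thus depend on this choice and are no separate support. By the same naming rule, Creg2, Ly6c2, Procr and Ptgds had the more positive effects on day 14, by 1.08 ± 0.20, 0.40 ± 0.07, 0.53 ± 0.11 and 1.75 ± 0.38 on the log2 scale (edgeR adjusted p = 1 for each). The effects were −1.70 and −0.62 for Creg2 and −0.93 and −0.40 for Procr on days 7 and 14, while Ly6c2 was at −0.20 and 0.20. Skeletal muscle genes made up 2 of the 8 calls with a more positive effect without mouse 8, Myh4, a fast myosin, among them at 8.33. That list stood at 4.97 in the ContraImplant and 0.18 in the Implant node of mouse 9 on day 7, and between −0.41 and 0.04 in the 6 nodes of day 14. The part of this in the comparison of days was not tested. Col1a1, a chain of type I collagen, had a log2 fold change of 1.42 ± 0.13 on day 7 and 0.23 ± 0.12 on day 14, a difference of −1.19 ± 0.18 (edgeR adjusted p = 1 with both days, 0.00467 without mouse 8). Col3a1 had 1.13 ± 0.11 and 0.16 ± 0.11, Col1a2 0.99 ± 0.09 and 0.11 ± 0.09, and Col5a2 0.81 ± 0.06 and 0.23 ± 0.06. Col1a1, Col1a2, Col3a1, Il33 and Bgn were the 5 calls of DESeq2 on this difference. Il33, an alarm cytokine of stroma, had 0.43 ± 0.06 on day 7 and −0.18 ± 0.06 on day 14. On day 14 Col1a1 still read 284, 324 and 494 CPM in the ContraImplant and 335.9, 419.9 and 526.3 CPM in the Implant nodes, above the 193.9, 182.4 and 219.6 CPM of the NoImplant nodes. The NoImplant mice were not tested here. Of 25 matrix genes 4 were called higher (background 4.04%) and 4 lower (background 8.82%) in day 14 alone, among the lower Tnc, the matrix protein tenascin-C, at 109, 154 and 126 CPM against 55.4, 104 and 82.7 CPM.

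**Figure D3:**
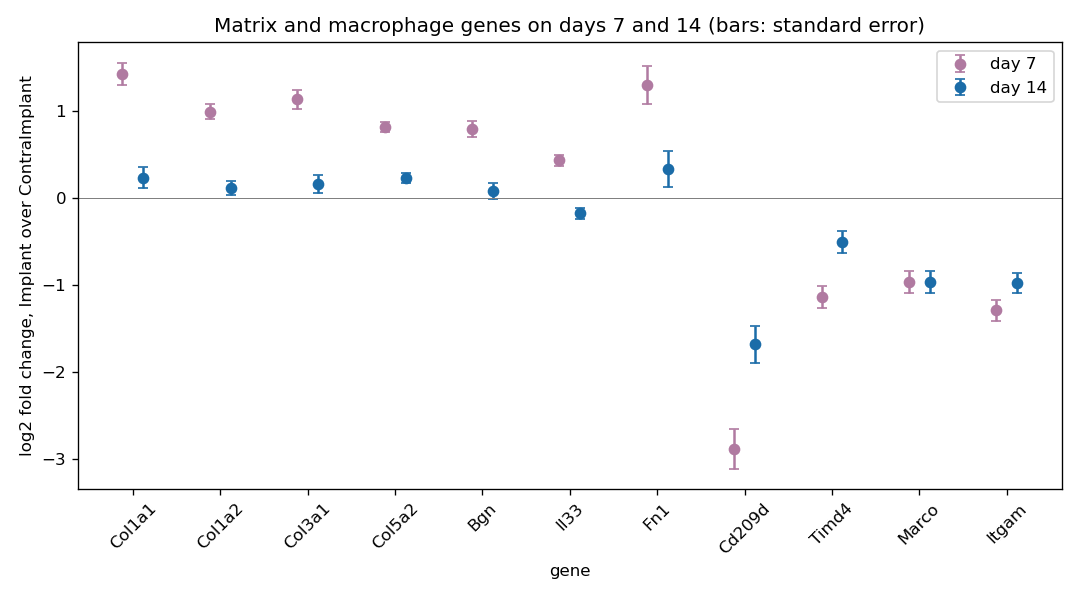
Log2 fold change, Implant over ContraImplant, with standard errors, for 11 matrix and macrophage genes on day 7 and day 14 from the fit of both days. Col1a1 stood at 1.42 on day 7 and 0.23 on day 14, while Marco was at −0.97 on both.

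No sinus macrophage gene passed the test of the difference between days, with or without mouse 8. Marco had −0.97 on both, and Itgam −1.30 ± 0.12 on day 7 beside −0.98 ± 0.12. Cd209d had −2.89 ± 0.23 on day 7 and −1.69 ± 0.21 on day 14, a difference of 1.20 ± 0.30 that did not pass (edgeR adjusted p = 1 with both days, 0.201 without mouse 8). The cell cycle list had a median of 0.92 on day 7 and 0.14 on day 14. No member passed the test of the difference, with or without mouse 8. Its level in the Implant node was 0.94, 1.49 and 0.07 above that of the ContraImplant node in mice 7, 8 and 9, and −0.08, 0.19 and 0.33 in mice 25, 26 and 27.

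**Figure D4:**
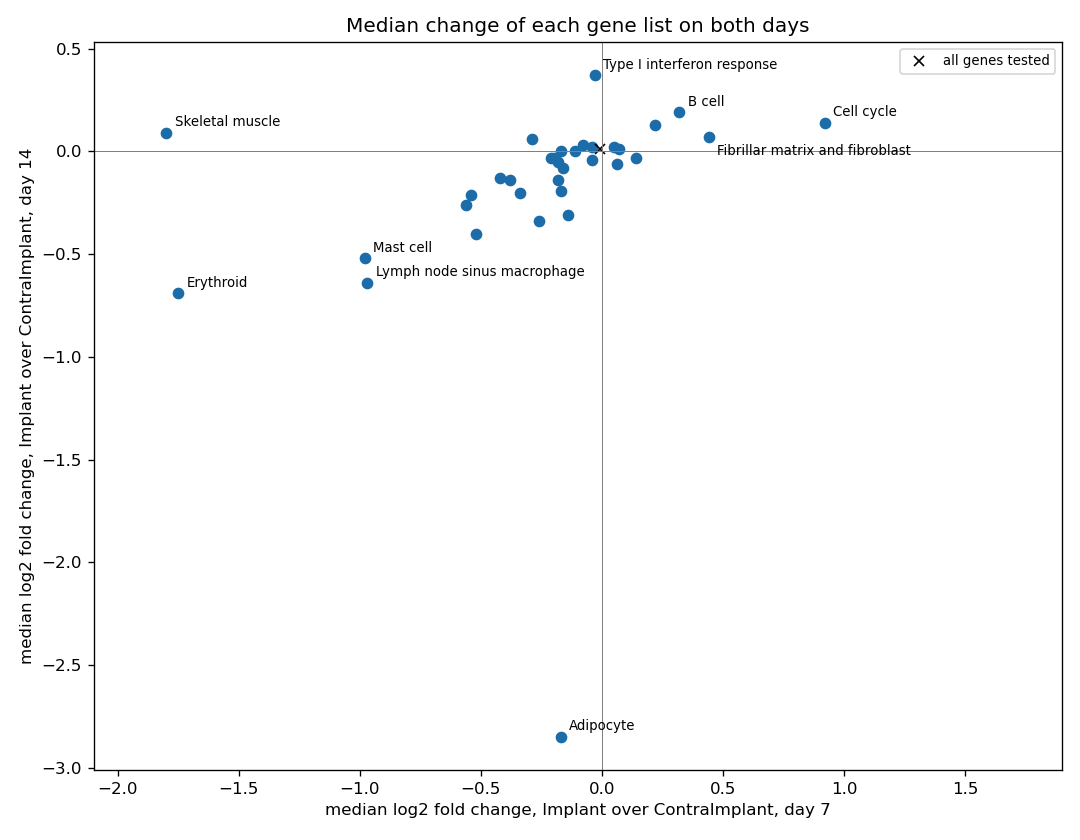
Median log2 fold change, Implant over ContraImplant, of each of the 34 gene lists on day 7 (horizontal) and day 14 (vertical), with all genes tested as a cross. The adipocyte list stood at −2.85 on day 14 and −0.17 on day 7, and the sinus macrophage list was negative on both days (−0.64 and −0.97).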

How the data were processed

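Whole-number counts per gene were deposited by the authors for the 18 lymph node libraries, unnormalised. Per the labels' protocols, nodes were flash frozen, RNA was taken with RLT, and an NEBNext Ultra II kit was used on 100 ng of it. Per the submitters' processing notes, fastp and STAR were used on mm10. For the counting program, annotation and strand setting, "not given in the sources used here" applies, so overlapping, antisense and near-identical genes are uncertain. Of 54752 identifiers, 54723 were matched to GENCODE M21 for names, and 17552 were at 0 in all 18 libraries. Promoters are from RefSeq (GRCm38.p6).

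Counts were analysed in R 4.3.3 with edgeR 4.0.16 (filterByExpr, minimum count 10; TMM; quasi-likelihood F test; Benjamini-Hochberg adjusted p below 0.05). The main fit held the 12 Implant and ContraImplant libraries of days 7 and 14 with a term for each mouse, a separate Implant effect per day, and 4 residual degrees of freedom. Each standard error was derived from the fold change and its F statistic (size of the log2 value divided by root F). Unless stated, it comes from the fit of both days. It then holds the spread of both days, mouse 8 included, and not that of the day 14 mice alone. Levels are CPM on the TMM scale, and list levels use log2 CPM with a prior count of 2. DESeq2 1.42.0 was an alternative. The scripts were tested on simulated counts. The mouse numbers come from the labels and name the animal: the Implant and ContraImplant nodes of a mouse deviated together (r = 0.411, 0.187 and 0.373 on day 14; 0.357, 0.111 and 0.127 on day 7), so the fit is paired. Libraries of 1 group differed by more than sampling noise (chi-square per degree of freedom 12.4 to 32.5 in the day 14 groups compared). The labels do not say more of how replicates were made than the mouse number.

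Genes were named by a rule: the 12 largest changes each way past the threshold whose higher group averaged 50 counts or more, with 1 direction in all 3 mice, filled by smallest p, 4 each way for the difference between days, and up to 4 members per list. Other members named here were chosen after their values were seen. Predicted genes, RIKEN genes and single antibody segments were left out. The members and the 34 lists were chosen with earlier results of these data known. The alternatives were scaling, filter, tool, pairing and left-out mice, with the fit of day 14 alone among them. The adipocyte covariate, and the variations of the day 14 fit, were added after seeing the data.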

Additional observations from a re-analysis of the deposited data

How the results depend on the processing

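On day 14, 0 genes passed in the paired fit of both days, with RLE scaling, without a replicate block and with the adipocyte covariate. There were 13 with no low count filter, 100 with DESeq2 and 2281 with the replicate block on the day 14 libraries only. Leaving out 1 mouse gave 0 to 1788, the highest without mouse 8 of day 7. On day 7 the 19 calls became 131 (all 18 libraries) or 2 (12 libraries) with no replicate block, 0 with the replicate block on day 7 only, 460 with no filter, 986 with DESeq2 and 3712 with the adipocyte covariate, and 0 to 297 with 1 mouse left out (0 without mouse 25, 26 or 27, 6 without mouse 9, 297 without mouse 8). The difference between days went from 0 to 5 with DESeq2, 1071 with the covariate, and 0 to 213 with 1 mouse left out (213 without mouse 8). In day 14 alone the 2281 calls became 136 with no replicate block and 1396 with DESeq2, and 531 to 2884 with 1 mouse left out (531 without mouse 25, 956 without mouse 26). The cause of these changes was not tested. With the covariate, some list medians on day 14 turned direction. Among them were blood endothelium (−0.21 to 0.33), erythroid (−0.69 to 0.50) and mitochondrially encoded genes (−0.26 to 0.53). Cell cycle (0.14 to −0.36), B cell (0.19 to −0.09) and the adipocyte list itself (−2.85 to 0.11) also did. The covariate is the level of the adipocyte list, so the move of that list toward 0 was fixed in advance. On day 14 this level was lower in the Implant node of each mouse. The other medians therefore cannot separate fat from side.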
